A study of Mus musculus with 30 samples.

Results

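The Hox genes are described here across mouse stromal cells of metastatic and healthy bone, lung and brain. Members were the rows of the count table whose symbol is Hoxa, Hoxb, Hoxc or Hoxd followed by a number, 39 of 43346 gene IDs. All 39 genes that the annotation names in this way were found, and 1 of them, Hoxd12, had no count in any library. The study injected 100000 GFP- and luciferase-marked circulating tumour cells into the left cardiac ventricle of female NSG mice, an immunodeficient strain, aged 6 to 8 weeks and carrying slow-release estrogen under the skin. The tumour cells were human breast cancer lines grown from patient blood, named Brx07, Brx42, Brx50 and Brx68. GFP-negative host cells were sorted from dissociated lesions, and total RNA of 50000 cells was sequenced. The 30 libraries comprised bone stroma exposed to tumour cells (13: 2 with Brx07, 4 with Brx50, 7 with Brx68), lung stroma exposed to them (7: 2 with Brx07, 1 with Brx42, 3 with Brx50, 1 with Brx68) and brain stroma exposed to Brx50 (3). Unexposed controls comprised 3 bone, 2 lung and 2 brain libraries. The labels do not say whether control mice also carried estrogen. NSG mice lack mature lymphocytes, so the stroma is that of a host without adaptive immunity. The site within a tissue is labelled for only 2 libraries: exposed bone 1 is from the leg and exposed bone 2 from the skull, both with Brx07 and under the same label code.

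Hox genes encode homeodomain transcription factors that give cells their position along the head-to-tail axis and along the limb. They lie in 4 clusters, A to D, and the gene order within a cluster follows the order of expression along the body: low-numbered genes are used towards the hindbrain and neck, middle numbers in the thorax, and high numbers in the lumbar and tail regions and the distal limb. Genes with the same number in different clusters are paralogues. Adult fibroblasts and other mesenchymal cells keep much of the pattern of the place they arose in, and the forebrain, midbrain and the neural-crest mesenchyme of the face and front of the skull normally form without Hox expression. The 39 members comprised 11 genes of cluster A on chromosome 6, 10 of cluster B on chromosome 11, 9 of cluster C on chromosome 15 and 9 of cluster D on chromosome 2. By number, 12 were paralogues 1 to 4, 11 were paralogues 5 to 8 and 16 were paralogues 9 to 13.

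Promoter sequences are shown for 3 members that carry the results below: Hoxa5, the most abundant Hox gene of lung, Hoxd8, the most abundant in control bone, and Hoxa10, counted in the leg and not in the skull. Each is the 250 bases upstream of a RefSeq transcript start (assembly GRCm38.p6), written 5′ to 3′ on the gene's own strand, with CG dinucleotides in capitals. The Hoxa5 window is chr6:52204588-52204837 on the minus strand, that of Hoxd8 is chr2:74704365-74704614 on the plus strand, and that of Hoxa10 is chr6:52240855-52241104 on the minus strand, each directly upstream of its gene.
Hoxa5: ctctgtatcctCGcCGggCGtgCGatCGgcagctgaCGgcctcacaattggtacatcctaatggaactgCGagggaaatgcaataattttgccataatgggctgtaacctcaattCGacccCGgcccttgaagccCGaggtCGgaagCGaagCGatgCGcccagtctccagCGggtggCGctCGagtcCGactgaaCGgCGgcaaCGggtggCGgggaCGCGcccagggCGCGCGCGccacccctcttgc
Hoxd8: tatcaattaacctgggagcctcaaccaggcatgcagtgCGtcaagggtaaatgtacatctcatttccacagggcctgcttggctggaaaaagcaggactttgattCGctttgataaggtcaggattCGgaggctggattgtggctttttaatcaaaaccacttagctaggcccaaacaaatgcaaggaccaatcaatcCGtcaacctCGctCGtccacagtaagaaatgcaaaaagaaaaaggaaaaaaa
Hoxa10: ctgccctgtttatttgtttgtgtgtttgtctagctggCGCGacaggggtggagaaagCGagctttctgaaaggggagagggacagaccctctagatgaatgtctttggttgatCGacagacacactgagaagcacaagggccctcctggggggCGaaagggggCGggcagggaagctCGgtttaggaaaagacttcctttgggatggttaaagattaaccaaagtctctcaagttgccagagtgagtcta
The Hoxa5 window held 28 CG dinucleotides at 63.6% G and C, that of Hoxd8 held 6 at 44.4%, and the printed one of Hoxa10 held 7 at 51.6%. Hoxa10 has another RefSeq transcript start, whose window (chr6:52234940-52235189, minus strand) is not printed. That window held 20 CG dinucleotides at 59.2% G and C. RefSeq promoters were matched for 22 of the 39 members, with 24 windows in all. Their median was 12.5 CG dinucleotides (range 2 to 35) against 6 over all 32851 promoters of that length. The Pbx-Hox motif TGATNNAT, searched on both strands, was in 4 of the 24 Hox windows (16.7%) and in 7.68% of all promoters. The posterior-Hox motif TTTATNG was in 2 of 24 (8.33%) and in 9.81% of all. Neither motif occurred in the 3 printed windows.

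Library totals ranged from 4289012 to 15646947 counts, and levels are given as CPM, a gene's counts divided by its library total and scaled to the same nominal depth in every library. In all, 13947 counts fell on Hox genes. A count of 3 in a library was worth 0.192 to 0.699 CPM, so values in that range rest on a few counts. Whether the libraries within a group are from different mice is not labelled, so a p-value reflects the spread among libraries, which may be technical. In bulk samples, fewer cells of a type and less RNA per cell cannot be told apart. The labelled tissues were checked against their markers. The summed level of 7 alveolar epithelial markers was 2298 to 2974 CPM in control lung and at most 38.8 CPM in control bone and brain, 9 neutrophil markers summed to 29437 to 38011 CPM in control bone, and 8 neuronal markers to 2764 to 3542 CPM in control brain. In exposed bone the neutrophil sum ranged from 4.11 to 52716 CPM.

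**Figure D1:**
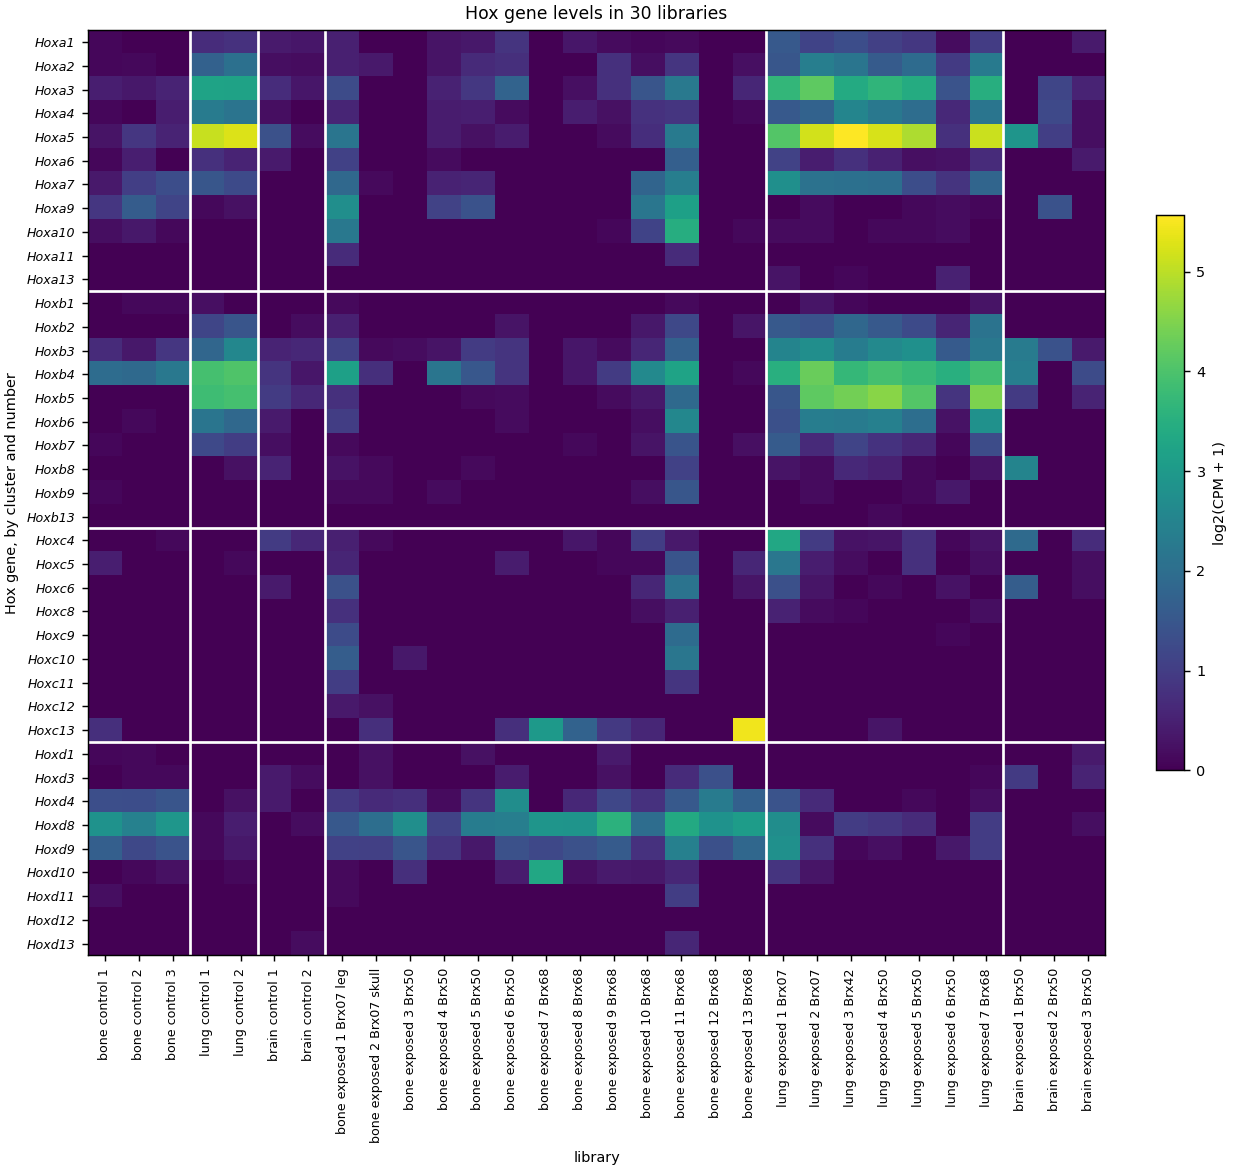
Hox gene levels (colour, log2(CPM + 1)) for the 39 members (rows, by cluster and number) in the 30 libraries (columns, by tissue and exposure). Lung columns carry the low and middle numbers of clusters A and B, with exposed lung 6 darker (lower) than the other lungs, and the exposed bone columns differ most from one another.

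Control tissues differed in which Hox genes they expressed. Control lung stood at 87.7 and 96.2 CPM summed over the 39 members, control bone at 17.2, 15.7 and 19.1 CPM, and control brain at 8.29 and 3.20 CPM. The mean level reached 1 CPM for 11 members in control lung, for 5 in control bone and for none in control brain. In lung, paralogues 1 to 4 made up 38.3% and 39.3% of the Hox counts and paralogues 5 to 8 made up 61.5% and 60.2%, leaving 0.204% and 0.580% for paralogues 9 to 13. All 11 lung members at 1 CPM or more belonged to clusters A and B.

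Hoxa5, a gene required for lung and airway development, was counted at 33.2 and 37.4 CPM in the 2 control lungs, at 0.231, 0.847 and 0.463 CPM in the 3 control bones and at 1.59 and 0.133 CPM in the 2 control brains. Every lung library lay above every bone and brain library. The log2 difference, bone minus lung, was -6.14 ± 0.40 (SE; edgeR's quasi-likelihood test, two-sided, Benjamini-Hochberg adjusted p = 2.49e-07), and lung minus brain was 5.60 ± 0.48 (adjusted p = 7.07e-07). Hoxb5, its paralogue in cluster B, stood at 13.4 and 14.2 CPM in lung, was not counted in the 3 control bone libraries and stood at 0.957 and 0.533 CPM in brain. With no count in bone against 302 counts in lung, its level was at least 158-fold higher in lung (floor of 3 counts over the bone group; adjusted p = 1.99e-07). Hoxb5 thus separated lung from bone without overlap, and it was also lower in bone than in brain, where it was at least 8.33-fold higher on 10 counts (adjusted p = 0.000525).

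Hoxb4, known from blood stem cells as well as from axial patterning, was the one gene at more than 2 CPM in every lung and bone control: 14.2 and 15.3 CPM in lung and 2.93, 2.73 and 3.70 CPM in bone, against 0.797 and 0.267 CPM in brain. All 3 tissue differences passed the test, with log2 differences of -2.27 ± 0.24 for bone minus lung (edgeR adjusted p = 8.07e-06), 2.72 ± 0.44 for bone minus brain (0.000101) and 4.99 ± 0.39 for lung minus brain (1.68e-07). The tissues therefore ranked lung, bone, brain for this gene. Hoxa3, which patterns the neck and pharyngeal pouches, stood at 8.42 and 8.28 CPM in lung, at 0.385, 0.282 and 0.463 CPM in bone and at 0.638 and 0.267 CPM in brain. Lung was above both other tissues (bone minus lung -4.45 ± 0.36, adjusted p = 6.97e-07; lung minus brain 4.39 ± 0.45, adjusted p = 1.92e-06).

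The remaining lung genes followed at lower levels. Hoxa4 was at 3.94 and 3.44 CPM, Hoxb6 at 3.49 and 2.70, Hoxa2 at 2.33 and 3.16 and Hoxb3 at 2.60 and 4.93 CPM. In bone each of these 4 stayed at or below 0.833 CPM in every control library. Their log2 differences, bone minus lung, were -4.59 ± 0.64 for Hoxa4, -6.26 ± 0.79 for Hoxb6, -5.32 ± 0.63 for Hoxa2 and -2.70 ± 0.45 for Hoxb3 (edgeR adjusted p at most 0.000365). Hoxb7 (1.34 and 1.02 CPM in lung; -4.89 ± 0.90) and Hoxb2 (1.25 and 1.77 CPM; at least 17.3-fold higher in lung) passed as well. Hoxa7 did not separate lung from bone: it stood at 1.79 and 1.40 CPM in lung and at 0.308, 1.04 and 1.48 CPM in bone (-0.82 ± 0.56, adjusted p = 0.266), and it was not counted in control brain.

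Control bone had its own set, led by cluster D. Hoxd8 stood at 6.16, 4.42 and 6.57 CPM in the 3 control bones, at 0.0896 and 0.372 CPM in lung and at 0 and 0.133 CPM in brain. The bone libraries were all above the others, by a log2 difference of 4.54 ± 0.52 over lung (edgeR adjusted p = 1.49e-05) and of 6.20 ± 0.70 over brain (4.26e-06). Its neighbour Hoxd9, one of the genes that pattern the upper limb segment, stood at 2.23, 1.32 and 1.67 CPM in bone, at 0.0896 and 0.279 CPM in lung and at 0 in both brains (bone minus lung 3.15 ± 0.64, adjusted p = 0.00187). Hoxa9, active in blood progenitors and in the limb, stood at 0.847, 2.07 and 1.20 CPM in bone, at 0.0896 and 0.186 CPM in lung and at 0 in brain (3.17 ± 0.77 over lung, adjusted p = 0.00578). Over brain, Hoxd9 was at least 8.14-fold and Hoxa9 at least 6.14-fold higher (floor of 3 counts over the brain group). Hoxd4, at 1.54, 1.51 and 1.76 CPM in bone and at most 0.319 CPM in the other control libraries, also passed against both, but 52.3% of its exon bases are shared with other annotated genes, Hoxd3 among them, so its counts cannot be assigned with certainty. Exon bases are also shared by Hoxb3 (52.9%, with its antisense gene Hoxb3os), Hoxb2 (27.3%), Hoxa3 (27.1%) and Hoxa7 (20.4%).

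Control brain held few Hox counts. Hoxc4 was at 0.957 and 0.533 CPM, where both lung libraries had none and the bone libraries had 0, 0 and 0.0926 CPM, and too few counts for a test. Paralogues 9 to 13 were almost absent: 15 of the 16 had no count in either control brain. Among members that reached the level needed for a test (15 of 39), 4 were higher and 10 lower in bone than in lung, 6 were higher and 1 lower in bone than in brain, and 11 were higher and none lower in lung than in brain. Over all 18859 genes tested, 22.5% were higher and 22.3% lower in bone than in lung, 37.0% higher and 38.9% lower in bone than in brain, and 34.6% higher and 37.4% lower in lung than in brain. A member can pass the level filter through the tissue where it is high, so the member counts are no measure of the cluster as a whole. The 3 comparisons share their libraries. When the spread was estimated from all 30 libraries in 1 fit, member calls went to 0 for bone against lung. They went to 2 for bone against brain (Hoxd8 and Hoxd9) and 2 for lung against brain (Hoxa2 and Hoxa4). The shares of all genes called in that fit are not given here.

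Per kilobase of exon, a scale on which genes can be compared, lung was led by Hoxa5 at 18.8 ± 1.60 CPM per kb (SD, n = 2), followed by Hoxb4 at 5.75 ± 0.277 and Hoxb5 at 4.95 ± 0.223. These last 2 lay close together, and Hoxa4 came next at 2.32 ± 0.222 CPM per kb. Hoxb6 (1.58 ± 0.287), Hoxa2 (1.55 ± 0.332) and Hoxa3 (1.39 ± 0.0170) could not be ordered beyond their spread. In control bone the order was Hoxd8 at 2.08 ± 0.415, Hoxb4 at 1.22 ± 0.201, Hoxd9 at 0.814 ± 0.216 and Hoxd4 at 0.543 ± 0.0466 CPM per kb (SD, n = 3), with Hoxa7, Hoxa5 and Hoxa9 between 0.246 and 0.327 and overlapping. In brain, Hoxa5 at 0.460 ± 0.551 CPM per kb (SD, n = 2) had an SD larger than its mean.

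**Figure D2:**
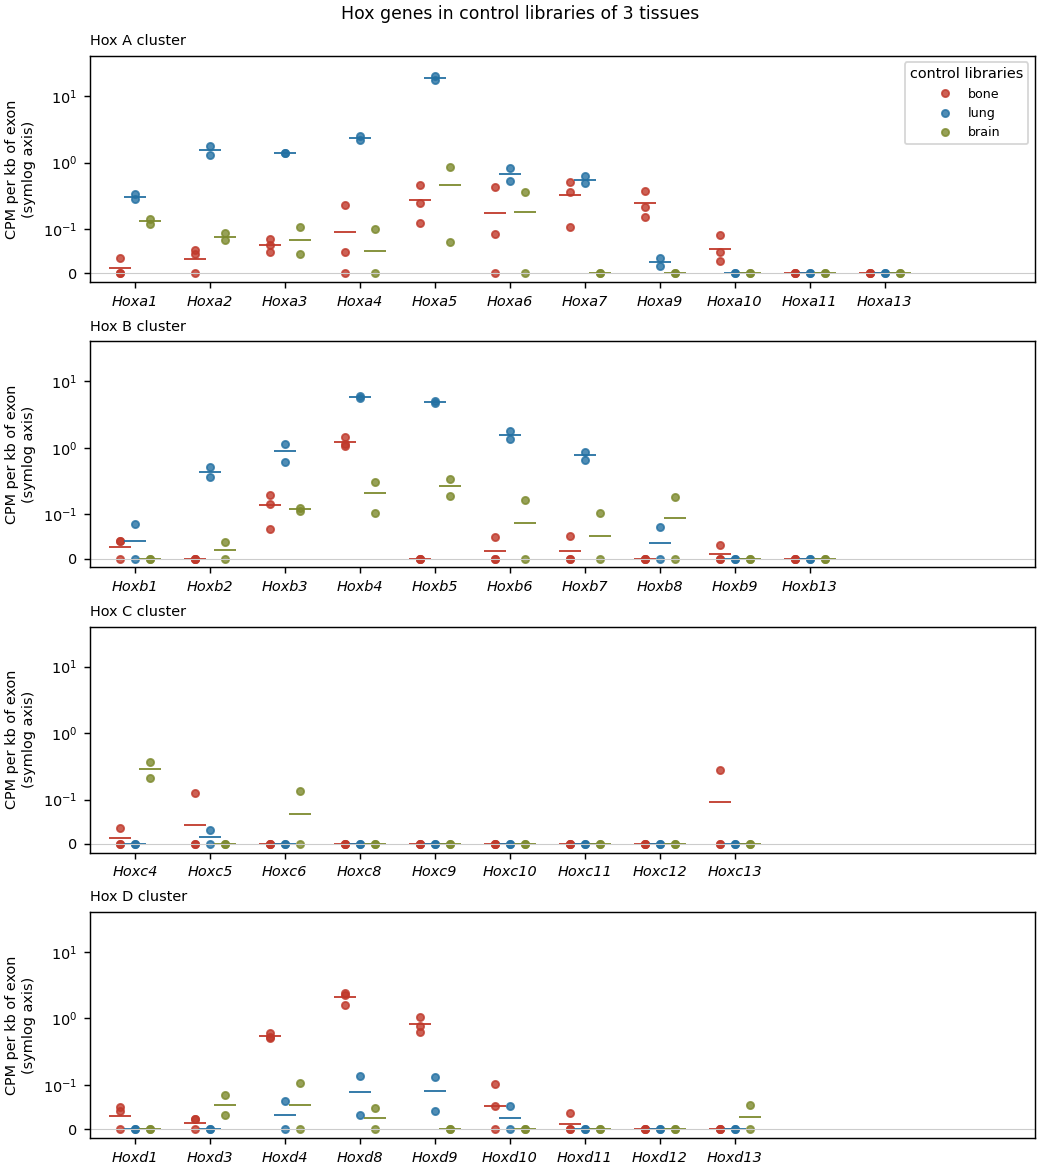
Levels (CPM per kb of exon, symlog axis) of the 39 Hox genes by cluster in the 7 control libraries, with 1 point per library, coloured by tissue, and a line at each tissue mean. Hoxa5, Hoxb4, Hoxb5 and Hoxa3 are highest in lung, and Hoxd8 and Hoxd9 in bone.

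Genes that act with the clusters were read from lists. Of the 17 non-coding RNAs of the clusters, 3 had enough counts in controls. Hotairm1, transcribed at the front end of cluster A, stood at 3.34 ± 0.540 CPM (SD, n = 2) in lung and 0.0627 ± 0.109 CPM (n = 3) in bone, and Hoxaas2, antisense within cluster A, at 2.74 ± 0.0723 and 0.0622 ± 0.0539 CPM. Both were lower in bone, by log2 differences of -5.60 ± 0.75 and -5.31 ± 0.63 (edgeR adjusted p = 5.86e-05 and 2.01e-05), and Hoxd3os1 of cluster D was higher in bone (2.83 ± 1.00, adjusted p = 0.0386). The first 2 thus differed in the direction of Hoxa2 to Hoxa5, and the third in the direction of Hoxd4 and Hoxd8. The strand setting of the counting is not given, so reads of antisense partners cannot be told apart from those of the genes they overlap.

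The counts that follow can be read against all genes tested, of which 22.5% were higher and 22.3% lower in bone than in lung. Of the 9 Hox cofactors, homeodomain partners that bind DNA together with Hox proteins, 1 was higher and 5 lower in bone than in lung (median log2 difference -0.49, against 0.00 over all genes). Meis1 stood at 12.1 ± 1.04 CPM in bone and at 100.4 ± 12.9 CPM in lung (-3.08 ± 0.13, edgeR adjusted p = 3.18e-09), and Meis2 at 7.59 ± 2.57 and 44.8 ± 11.6 CPM (-2.57 ± 0.33). Of the 13 Polycomb repressors, which hold silent Hox genes under a histone mark, 2 were higher and 5 lower in bone (median -0.28). Ezh2, the enzyme that writes that mark, was higher in bone (60.7 ± 1.10 against 22.5 ± 0.0788 CPM, 1.40 ± 0.12, adjusted p = 1.08e-06), and Bmi1, a member of the complex that reads it, was lower (-1.19 ± 0.14). Of the 8 activators tested, 2 were higher and 1 lower in bone, led by Gdf11, a ligand that sets the posterior Hox domain in the embryo (10.1 ± 0.910 against 3.38 ± 0.0892 CPM, 1.55 ± 0.19). Retinoic acid, made by Aldh1a enzymes, induces the front genes of the clusters, and of its 12 genes 4 were higher and 5 lower in bone: Aldh1a3 was higher (21.0 ± 1.56 against 1.91 ± 0.208 CPM) and Aldh1a1 lower (15.2 ± 1.98 against 96.0 ± 21.1 CPM).

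Other positional genes are given against the same shares of all genes, 22.5% higher and 22.3% lower in bone than in lung. All 17 genes of the list for mesenchyme of the head, the region that forms largely without Hox expression, were higher in control bone than in lung (median log2 difference 7.48). Alx4, which patterns the skull vault, stood at 24.5 ± 2.43 CPM in bone and 1.67 ± 1.05 CPM in lung (3.82 ± 0.31, edgeR adjusted p = 9.10e-07). Of the 12 limb genes 9 were higher and 2 lower in bone, with Prrx1, a gene of limb and head mesenchyme, at 75.9 ± 7.73 against 9.87 ± 1.29 CPM, and Tbx4, used in both hindlimb and lung, at 0.660 ± 0.247 against 27.7 ± 6.99 CPM. Of the 9 lung patterning genes 8 were lower in bone and 1 higher, and of 12 forebrain and midbrain genes tested 9 were lower in bone than in brain and none higher, where 38.9% of all genes were lower and 37.0% higher. Control bone thus expressed Hoxd8, Hoxd9 and Hoxa9 together with head-mesenchyme genes, and its site is not labelled.

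The leg and skull libraries gave the known sites. Summed Hox levels were 43.8 CPM in the leg and 7.43 CPM in the skull, and 32 of the 39 members were counted in the leg against 14 in the skull. With 1 library at each site there is no test, and intervals cover counting error only. Hoxb4 had 79 counts in the leg (7.91 CPM) and 7 in the skull (0.684 CPM), an 11.6-fold ratio with an exact 95% interval of 5.35 to 29.7. Hoxa9 had 57 counts in the leg (5.71 CPM) and none in the skull, at least 19.5-fold higher in the leg against a floor of 3 counts. Hoxa10, whose loss alters the upper leg bone in mice, had 37 counts (3.70 CPM) and none, at least 12.6-fold, and Hoxa5 had 35 (3.50 CPM) and none, at least 11.9-fold. The leg thus held both middle and rear genes of cluster A.

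Several genes of cluster C were also counted in the leg alone. Hoxc10, used in the lumbar region and hindlimb, had 21 counts in the leg (2.10 CPM) and none in the skull, at least 7.17-fold. Hoxc6 had 16 counts (1.60 CPM) against none, at least 5.46-fold, and Hoxc9 had 14 (1.40 CPM) against none, at least 4.78-fold. Hoxa3 likewise had 14 counts against none, and Hoxa7 had 27 against 1 (27.6-fold, interval 4.56 to 1132). Of the 15 members that reached 1 CPM in either library, 9 were at least 4-fold higher in the leg and none was in the skull. Over all 18250 genes at that level, 6.42% were at least 4-fold higher in the leg and 25.3% in the skull. For these thresholds a count under 3 was set to 3, while the ratio printed for Hoxa7 is that of its raw counts. Hoxb3, with 11 counts in the leg against 1 in the skull, is therefore not among the 9. An 8-fold threshold left 5 members, while TMM scaling raised the number above 9. The shares of all genes under these settings are not given here.

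Hoxd8 and Hoxd9 did not follow that pattern. Hoxd8 had 19 counts in the leg (1.90 CPM) and 31 in the skull (3.03 CPM), a ratio of 0.628 with an interval of 0.335 to 1.15, and Hoxd9 had 11 and 11 (ratio 1.02, 0.403 to 2.60). Both intervals include equal levels, and the interval of Hoxd8 leaves out a leg level 4-fold above the skull. Hoxc13, a gene of hair and nail keratinocytes and of the filiform papillae of the tongue, went the other way, with no count in the leg and 7 in the skull (0.684 CPM). In cluster D, Hoxd4 had 9 counts in the leg and 6 in the skull, and the other 6 genes had at most 2 counts at either site.

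The 2 libraries also differed in the cells they held. All 9 neutrophil markers were at least 4-fold higher in the leg (sums of 43359 and 2287 CPM), while 8 of 8 squamous epithelial (2.10 and 1350 CPM), 7 of 7 olfactory neuron (25.2 and 2933 CPM) and 7 of 8 photoreceptor markers were at least 4-fold higher in the skull. The sum of 10 fibroblast markers was 6444 CPM in the leg and 18908 CPM in the skull. Their part in the Hox differences was not tested. All 17 head-mesenchyme genes were at least 4-fold higher in the skull, among them Six2 (2 against 405 counts), Pax3 (0 against 176 counts, at least 57.3-fold) and Alx1 (0 against 86 counts, at least 28.0-fold). So were 9 of the 10 forebrain and midbrain genes at 1 CPM, with Otx2 at 0 against 342 counts (at least 111-fold). Of the 9 cofactors 4 were at least 4-fold higher in the skull and 0 in the leg, where 25.3% and 6.42% of all genes were. Among the 4 were Meis1 (60 against 532 counts, 8.66-fold) and Meis2 (29 against 652, 22.0-fold). Of the 11 limb genes at 1 CPM, 5 were at least 4-fold higher in the skull and none in the leg, among them Pitx1, a hindlimb and jaw gene, with 10 counts in the leg against 293 (28.6-fold). These 2 libraries share a tumour line, and the site, the cell make-up and the library cannot be told apart.

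**Figure D3:**
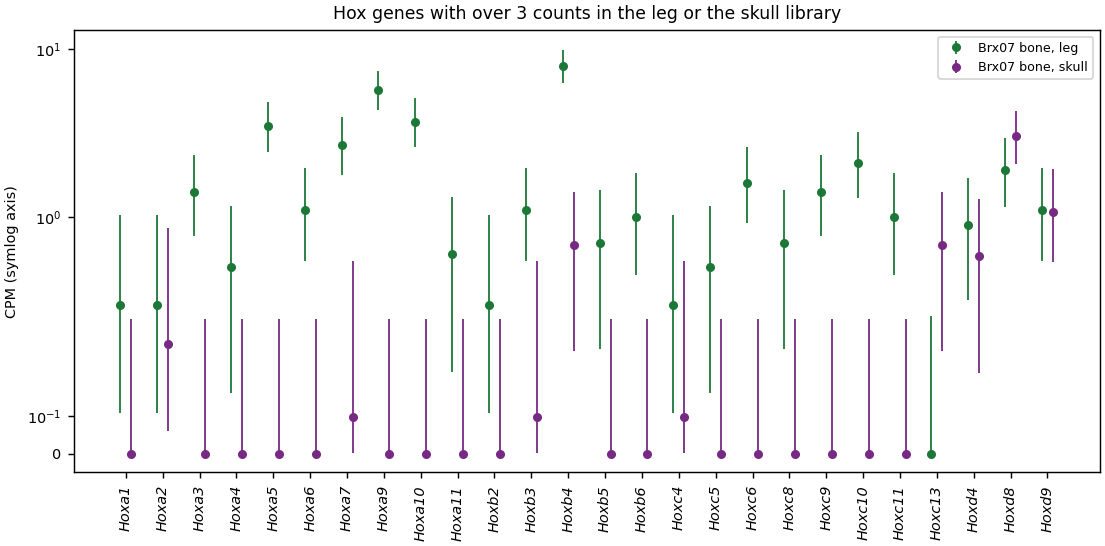
Levels (CPM, symlog axis) of Hox genes with over 3 counts in the leg or the skull library of Brx07 bone, 1 point per library, with bars for the exact 95% intervals of counting error. Hoxb4, Hoxa9, Hoxa10 and Hoxa5 are higher in the leg, and Hoxd8 and Hoxd9 overlap.

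Exposed bone libraries of unlabelled site differed widely in the same genes. The sum of paralogues 9 to 12 of clusters A and C was 14.8 CPM in the leg and 0.196 CPM in the skull. It was 1.00, 2.35 and 1.30 CPM in the 3 controls and had a lowest, median and highest value of 0, 0.196 and 25.8 CPM over the 13 exposed libraries. Hoxa10 was at most 0.0842 CPM in 10 of the 13, at 1.17 CPM in exposed bone 10, at 3.70 CPM in the leg and at 10.1 CPM in exposed bone 11. Exposed bone 11, a Brx68 library, also held Hoxa9 at 7.97, Hoxb6 at 4.94, Hoxc10 at 3.53 and Hoxc9 at 2.82 CPM, and 33 members were counted there. Hoxd8 varied less, with 1.13, 5.75 and 10.99 CPM as lowest, median and highest exposed values, and it was counted in all 16 bone libraries.

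Marker sums also differed between these libraries. The summed level of the head-mesenchyme genes Alx1 and Alx4 was 1.60 CPM in the leg, 5.03 CPM in exposed bone 10 and 7.77 CPM in exposed bone 11, and between 11.1 and 71.6 CPM in the other 10 exposed libraries. It was 34.6, 42.6 and 30.8 CPM in the controls. Neutrophil sums were 43359, 52716, 24883, 37146 and 18700 CPM in exposed bones 1, 4, 5, 10 and 11. The sums of paralogues 9 to 12 of clusters A and C were 14.8, 1.13, 1.65, 4.74 and 25.8 CPM there. The other exposed libraries had neutrophil sums of 4.11 to 2287 CPM and at most 0.274 CPM of these Hox genes. Controls had neutrophil sums of 29437 to 38011 CPM and 1.00 to 2.35 CPM of these Hox genes. Hoxc13 was at 42.4 CPM in exposed bone 13, at 6.90 CPM in exposed bone 7 and at 2.38 CPM in exposed bone 8, and at most 0.895 CPM in all other bone libraries. The squamous marker sums of these 3 libraries were 9353, 7265 and 12061 CPM, against 2.10 to 1350 CPM in the other exposed bone libraries and 764 to 1327 CPM in controls. The part of these cells in the Hox values was not tested.

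Across the 39 genes, the Pearson correlation of log2(CPM + 1) with the leg library was 0.85 for exposed bone 11, 0.76 for exposed bone 10 and 0.70 for exposed bone 4, and with the skull library 0.95 for exposed bone 9. Controls had Pearson values of 0.48, 0.68 and 0.59 with the leg and of 0.89, 0.72 and 0.78 with the skull, and leg and skull had 0.18 with each other. Ranks gave another picture: Spearman values of the controls were 0.43, 0.54 and 0.50 with the leg and 0.47, 0.41 and 0.40 with the skull, so that controls 2 and 3 were nearer the leg by rank and nearer the skull by Pearson. The Spearman value was 0.86 for exposed bone 11, 0.59 for exposed bone 10 and 0.55 for exposed bone 4 with the leg, 0.59 for exposed bone 9 with the skull, and -0.01 between leg and skull. Genes of 1 cluster are not independent, many are at 0 in both libraries, and the values do not assign a site.

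**Figure D4:**
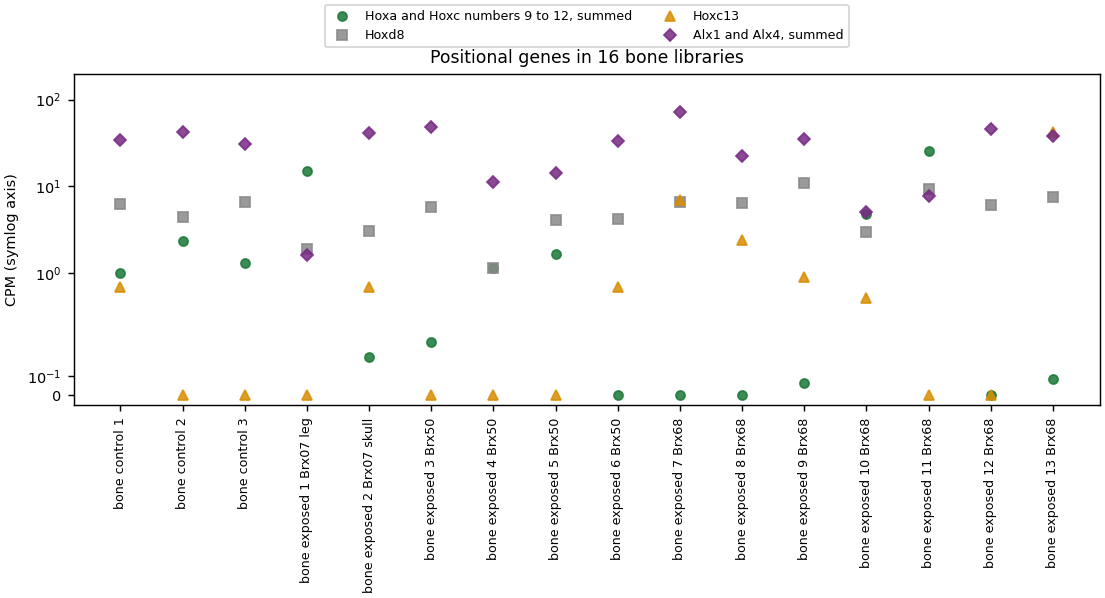
Summed CPM of paralogues 9 to 12 of clusters A and C, and levels of Hoxd8, Hoxc13 and the sum of Alx1 and Alx4, in each of the 16 bone libraries in library order (CPM, symlog axis). The leg (14.8 CPM) and exposed bone 11 (25.8 CPM) stand highest in the first measure, and Hoxc13 is highest in exposed bone 13.

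Exposure to tumour cells did not give a Hox change that passed the test in bone. Of the 39 members 9 could be tested and none was called, none at an unadjusted p under 0.05, and 0 (0%) of 18278 genes were called by edgeR, with 458 at an unadjusted p under 0.05. Hoxd8 was 5.37 ± 2.87 CPM (SD, n = 13) in exposed and 5.72 ± 1.14 CPM (n = 3) in control bone, a log2 difference of -0.10 ± 0.54. Hoxa10 was at 1.16 ± 2.88 against 0.176 ± 0.0968 CPM (2.64 ± 2.27, edgeR adjusted p = 0.970) and Hoxc13 at 4.19 ± 11.6 against 0.231 ± 0.400 CPM (3.95 ± 2.58). In both, the spread between exposed libraries exceeded their mean. DESeq2 called no member, and limma-voom with quality weights called 2, both lower in exposed bone. They were Hoxb4 (log2 difference -2.07, adjusted p = 0.0361, with -0.45 ± 1.28 by edgeR) and Hoxa9 (-2.70, adjusted p = 0.0432, with 0.16 ± 1.74 by edgeR). The share of all genes that limma-voom called is not given here, so these 2 calls cannot be set against it. Neutrophil sums were 29437 to 38011 CPM in controls. Exposed libraries other than 1, 4, 5, 10 and 11 had at most 2287 CPM, with no Hoxa9 count and at most 15 Hoxb4 counts. In those 5, Hoxb4 had 79, 31, 19, 71 and 83 counts and Hoxa9 had 57, 10, 17, 49 and 79. The part of the cell make-up in these calls was not tested.

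In lung, 15 members were tested and none was called, none at an unadjusted p under 0.05, and 0 (0%) of 17132 genes were called by edgeR, with 118 at an unadjusted p under 0.05. DESeq2 and limma-voom called no member either. Hoxa5 was 28.2 ± 15.2 CPM (SD, n = 7) in exposed and 35.3 ± 3.00 CPM (n = 2) in control lung (log2 difference -0.31 ± 0.88), with exposed libraries at 0.706, 33.8 and 46.3 CPM for lowest, median and highest. Hoxb4 was 13.1 ± 2.82 against 14.7 ± 0.712 CPM (-0.13 ± 0.22), with 10.4, 12.4 and 18.6 CPM for lowest, median and highest. Hoxb5 was 14.2 ± 9.13 against 13.8 ± 0.622 CPM (0.05 ± 0.95). Hoxc4 was counted in 7 of 7 exposed lungs and in neither control, at least 9.52-fold higher on 107 counts against a floor of 3 counts over the control group. Exposed lung 1 held 81 of those counts, and without it the bound was 2.59-fold on 26 counts. The difference did not pass (p = 0.0680 by edgeR, adjusted p = 1.00).

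A pair of exposed lungs stood apart. Exposed lung 6, with Brx50, summed to 20.6 CPM over the Hox genes where the other 6 summed to between 88.5 and 116 CPM. There Hoxa5 was 0.706, Hoxb5 0.776 and Hoxa3 1.69 CPM, while Hoxb4 at 10.4 CPM was close to the other exposed lungs. Its endothelial marker sum was 199 CPM against 1244 to 6520 CPM in the others, and its 9 lung patterning genes summed to 45.2 CPM against 323 to 1338. Exposed lung 1, with Brx07, had Hoxb5 at 1.80 CPM but held Hoxc4 at 9.13, Hoxd9 at 5.97 and Hoxd8 at 5.64 CPM. Its fibroblast sum was 55672 CPM against 1440 to 6522 CPM in the other exposed lungs. Its alveolar epithelial sum was 185 CPM, where the others had 545 to 5513 CPM. The part of these cell types in the Hox values was not tested. Leaving out both libraries left the number of called members at 0.

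**Figure D5:**
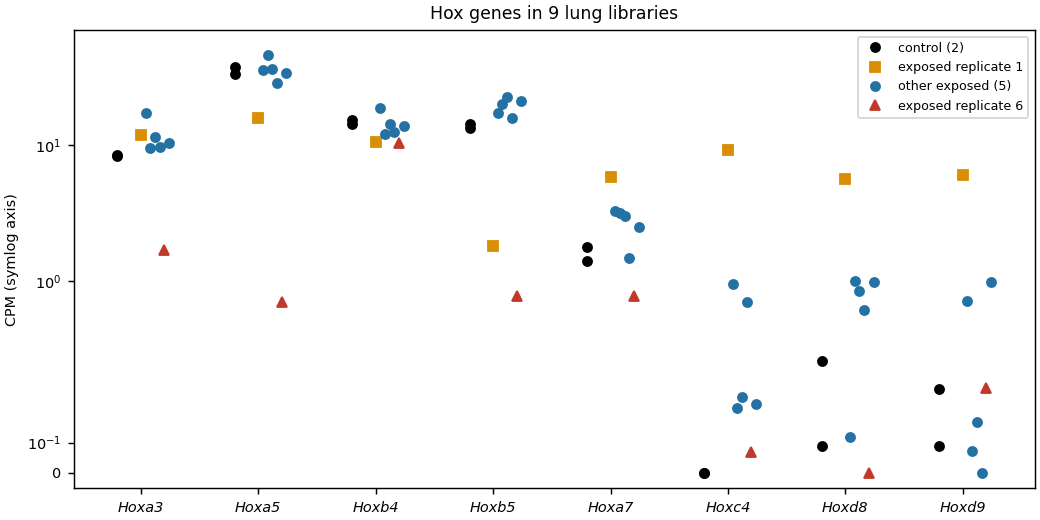
Levels (CPM, symlog axis) of 8 Hox genes in the 2 control and 7 exposed lung libraries, with exposed lungs 1 and 6 marked by squares and triangles. Exposed lung 6 is lowest for Hoxa5 (0.706 CPM) and Hoxb5 (0.776 CPM), and exposed lung 1 is highest for Hoxc4 (9.13 CPM) and Hoxd9 (5.97 CPM).

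In brain, 2 members could be tested and neither was called, nor did either reach an unadjusted p under 0.05, against 0.00598% of 16734 genes called by edgeR, and DESeq2 and limma-voom also called no member. Hoxa5 was 6.53, 1.03 and 0.158 CPM in exposed brain and 1.59 and 0.133 CPM in control brain (log2 difference 1.51 ± 1.83, adjusted p = 0.762). Hoxb3 had a log2 difference of 1.86 ± 1.53 (adjusted p = 0.631). Exposed brain 1 carried 26.1 CPM of Hox counts in all, against 6.92 and 5.54 CPM in the other exposed brains. The 7 pituitary markers summed to 2001, 1485 and 663 CPM in the 3 exposed brains and to 10.2 and 10.4 CPM in the controls, and their part in the Hox values was not tested.

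The tests of whether the exposure difference itself differed between tissues called none of 25 members in bone against lung, bone against brain or lung against brain, with 0% of 21233 genes called in each by edgeR and 237, 1771 and 838 genes at an unadjusted p under 0.05. Among members, Hoxa2 (p = 0.0140, adjusted p = 0.566) and Hoxb2 (p = 0.0415, adjusted p = 0.594) reached that level in bone against brain and none did in the other 2. Brx68 bone was compared with Brx50 bone. None of 5 members tested was called by edgeR, DESeq2 or limma-voom (0% of 16628 genes by edgeR, 657 at an unadjusted p under 0.05). Hoxd8 was 7.10 ± 2.56 CPM (SD, n = 7) with Brx68 and 3.79 ± 1.93 CPM (n = 4) with Brx50, with overlapping ranges. The log2 difference was 0.98 ± 0.51 (edgeR p = 0.0786, adjusted p = 0.983). The tumour line and the unlabelled sites of these libraries cannot be told apart.

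Among libraries exposed to 1 line, Brx50, edgeR called Hoxa5 between bone and lung and Hoxd8 between bone and brain. Hoxa5 stood at 0, 0.338, 0.194 and 0.343 CPM in bone and at 36.4, 28.6 and 0.706 CPM in lung, without overlap. Its log2 difference, bone minus lung, was -6.62 ± 1.47 (edgeR adjusted p = 0.0351), and the call was lost without any 1 of bone 3, 4, 5 and 6 or lung 4 and 5. The code at the end of the library labels is shared by bone 4, lung 6 and brain 3, by bone 5 and lung 4, and by lung 5 and brain 1, and what it marks is not stated. With that code as a block in bone against lung, Hoxa5 did not reach the level needed for a test and 0 members were called. No result with that block is given for bone against brain or lung against brain. In bone against lung without that block, Hoxa5 was the 1 called lower of 7 members tested and none was higher. Of all genes, 0.972% were lower and 3.07% higher in bone. At an unadjusted p under 0.05 were 6 of the 7 members and 3878 of 17995 genes. Hoxd8, among those 6, was higher in bone than in lung without overlap (edgeR adjusted p = 0.183). Hoxd8 stood at 5.75, 1.13, 4.07 and 4.23 CPM in bone and at 0, 0 and 0.158 CPM in brain, a log2 difference of 6.07 ± 1.55 (edgeR adjusted p = 0.0276), lost without bone 3, bone 5 or any 1 brain library. It was the 1 member of 7 called higher in bone than in brain, and none was lower (5.68% and 8.82% of all genes). An unadjusted p under 0.05 was reached by 2 of the 7 and by 5593 of 17995 genes. Between lung and brain edgeR called none of the 7, against 24.6% of all genes. Hoxa3 (edgeR adjusted p = 0.0608) and Hoxa5 (0.0959) were under an unadjusted p of 0.05, as were 6945 of 17995 genes. DESeq2 called 7 members and limma-voom called 5, and the shares of all genes called by these methods are not given here.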

How the data were processed

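RNA of GFP-negative sorted cells from 30 mouse libraries was sequenced, and values are the authors' raw counts by gene ID in a single deposited table, with every column mapped to a sample. Alignment with STAR 2.5.2b and counting with HTSeq are named in the submitters' processing notes, as are builds hg19, GRCh37, mm10 and GRCm38.p5. The annotation, the strand setting and how human and mouse reads were separated are not stated in those notes or the labels. CPM were computed on the library total of each deposited count column, and CPM per kb on the exon union of GENCODE M21 (GRCm38). Tests used edgeR 4.0.16 (quasi-likelihood, robust, TMM scaling, filterByExpr) over all genes that passed its level filter, with Benjamini-Hochberg adjusted p under 0.05, in R 4.3.3. Controls of the 3 tissues were fitted together, and so were the Brx50 libraries. Alternatives used limma 3.58.1, DESeq2 1.42.0, other scalings, no filter, the 6-group fit and leaving out each library. The script was tested on simulated data. Leg and skull used exact 95% intervals, a level of 1 CPM and a fold of 4, with counts under 3 set to 3 for the fold threshold. All members were described, in full those past the threshold, at most 8 per direction, and the 10 with the highest mean CPM, and of each pathway list at most 4 genes per comparison. Members and lists were chosen with earlier results of these data known. Where a group had no counts, a floor of 3 counts over that group was used.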

Additional observations from a re-analysis of the deposited data

Results flagged for a closer look

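Within lung exposed, Brx50 bone and Brx68 bone libraries, 54 values were compared with the others of their group. They were levels of members or the summed Hox level, and 27 had 1 library far from the rest. For normally spread values chance marks about 1 in 20 groups, but many of these members are at or near 0 in the other libraries, where that rate does not apply. Genes of a cluster also differ together in 1 library, and the sum is made of the members, so these values are not independent.

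Exposed lung 1, with Brx07, stood above the other exposed lungs for Hoxc4 at 9.13 CPM, Hoxc5 at 3.61, Hoxc6 at 1.58, Hoxd4 at 1.69, Hoxd8 at 5.64 and Hoxd9 at 5.97 CPM. Its fibroblast marker sum was 55672 CPM against 1440 to 6522 CPM in the other exposed lungs. Exposed lung 6 stood below them for the summed Hox level, at 20.6 CPM, and its endothelial sum was 199 CPM.

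Exposed bone 11 stood above the other Brx68 libraries for 15 members. In cluster A these were Hoxa5 at 3.93 CPM, Hoxa6 at 2.22 and Hoxa10 at 10.1. In cluster B they were Hoxb2 at 1.31, Hoxb3 at 2.32, Hoxb5 at 2.72, Hoxb6 at 4.94, Hoxb7 at 1.71, Hoxb8 at 1.11 and Hoxb9 at 1.82 CPM. In clusters C and D they were Hoxc5 at 1.71, Hoxc6 at 3.33, Hoxc9 at 2.82, Hoxc10 at 3.53 and Hoxd11 at 1.01 CPM. Its sum of Alx1 and Alx4 was 7.77 CPM.

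Single genes stood apart elsewhere. Hoxc13 was at 42.4 CPM in exposed bone 13, where squamous markers summed to 9353 CPM. Hoxd10 was at 9.11 CPM in exposed bone 7, Hoxd3 at 1.56 CPM in exposed bone 12 and Hoxc4 at 1.02 CPM in exposed bone 10, all with Brx68. Among Brx50 bone libraries, Hoxd4 was at 5.60 CPM in exposed bone 6. The part of other cell types in these values was not tested.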

How the results depend on the processing

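The number of members called in the control comparisons (14, 7 and 11 for bone against lung, bone against brain and lung against brain) went to 0, 2 and 2 in the fit of all 30 libraries, and the cause was not tested. With the replicate number as a block (replicate block) it was 14, 7 and 11, so it moved no count. The numbers are those of the titles, while the count table numbers the brain controls 2 and 3. By title number the deviations of same-numbered controls correlated at 0.0315 for bone and lung, -0.0651 for bone and brain and -0.0332 for lung and brain, over 2 pairs each, so nothing shows that the numbers pair the libraries. The count table's own numbers were not tried. Leaving out 1 library gave 12 to 14, 6 to 7 and 10 to 11. In exposed against control bone, 0 members were called by edgeR and 2 by limma-voom with quality weights, where Hoxa9 changed sign to -2.70. For Brx50 bone against lung (1 member called) the number was 2 with no filter, 8 with DESeq2, 6 with limma-voom and 0 with the label code as a block, and 0 to 2 without 1 library. For Brx50 bone against brain (1) it was 4 with DESeq2 and 0 to 1 without 1 library. For Brx50 lung against brain (0) it was 5 with no filter, 7 with DESeq2, 5 with limma-voom and 0 to 5 without 1 library. For leg against skull (9), an 8-fold threshold gave 5, and TMM scaling gave 13. The shares of all genes called under these other settings are not given here, so these member counts cannot be set against them. Leaving out leg and skull together, or exposed lungs 1 and 6 together, both chosen after the data were seen, left 0 members called. Of the 39 members 15 had enough counts for a test in the control comparisons, 9 in exposed bone and 2 in exposed brain, and edgeR's level filter left the others untested.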
